A study of Mus musculus with 9 samples.

Results

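The C/EBP family consists here of 5 mouse genes, Cebpa, Cebpb, Cebpd, Cebpe and Cebpg, chosen by name as partners of PU.1 in granulocyte development. All 5 were found by Entrez identifier among the 27179 gene entries, and all 5 were among the 12004 genes that passed the filter on low counts. RNA came from AML246, mouse leukaemia cells of C57BL/6 origin that are titled p53-/-, carry a hairpin against PU.1 (shPU.1) and were grown with IL3. The 9 libraries are 3 single-cell clones (clones 1, 2 and 4) in 3 conditions, all of them without p53. Untreated cells were sorted GFPhigh, cells given doxycycline (Dox) for 14 days were sorted GFPoff, and washed cells had 14 days of Dox and then 14 days without it and were sorted GFPhigh. Doxycycline, the GFP gate and the state of the hairpin change together in these groups and cannot be told apart. All clones come from 1 leukaemia line, so each p-value between conditions rests on the spread among these clones. Where each clone was compared with itself, that spread is of the changes within clones.

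C/EBP proteins are basic leucine zipper transcription factors that bind DNA as dimers with each other or with related factors such as ATF4 and CHOP. In the myeloid lineage C/EBP alpha is needed for the step to granulocyte and monocyte progenitors, C/EBP epsilon for later granulocytes and their secondary granules and for eosinophils, and C/EBP beta and C/EBP delta take part in the inflammatory response. C/EBP gamma lacks an activation domain of its own and acts through its dimer partners, among them ATF4. PU.1, the product of Spi1, binds beside C/EBP proteins at many promoters and enhancers of myeloid genes.

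Of the 5 genes, 3 had an upstream sequence in the RefSeq promoter table of GRCm38.p6: Cebpa, Cebpb and Cebpg. These 250-base windows, which end just before the annotated start, are shown because they are where sites for PU.1 and for C/EBP proteins themselves were looked for, and because Cebpa and Cebpg are neighbours on the chromosome. They lie at chr7:35119043-35119292 on the plus strand for Cebpa, at chr2:167688665-167688914 on the plus strand for Cebpb and at chr7:35056567-35056816 on the minus strand for Cebpg. Each is written 5′ to 3′ on the strand of its gene, and capitals mark matches to the motifs searched.
Cebpa: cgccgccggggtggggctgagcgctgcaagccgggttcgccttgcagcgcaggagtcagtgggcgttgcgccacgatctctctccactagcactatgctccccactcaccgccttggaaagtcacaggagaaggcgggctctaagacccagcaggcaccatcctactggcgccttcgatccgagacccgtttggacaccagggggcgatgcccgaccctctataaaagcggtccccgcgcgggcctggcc
Cebpb: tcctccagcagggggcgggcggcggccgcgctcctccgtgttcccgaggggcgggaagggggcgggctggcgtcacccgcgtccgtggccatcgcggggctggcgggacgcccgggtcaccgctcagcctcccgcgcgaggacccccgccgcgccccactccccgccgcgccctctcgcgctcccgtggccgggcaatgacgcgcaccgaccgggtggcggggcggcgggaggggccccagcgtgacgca
Cebpg: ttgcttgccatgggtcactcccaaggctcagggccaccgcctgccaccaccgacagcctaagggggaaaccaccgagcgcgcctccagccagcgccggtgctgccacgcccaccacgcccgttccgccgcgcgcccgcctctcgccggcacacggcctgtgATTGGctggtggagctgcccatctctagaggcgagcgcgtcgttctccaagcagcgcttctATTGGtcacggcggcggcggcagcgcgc
The motifs were searched on both strands: GGAAGT, GAGGAAGT and AGAGGAAGT for PU.1 (each contained in the next), TTGCGCAA and TTGCNNAA for C/EBP (the first is contained in the second), CCAAT, and TGATGNAA for a pair of C/EBP and ATF4. The Cebpg window held CCAAT 2 times, both on the opposite strand (printed as ATTGG), at 89 to 85 and at 28 to 24 bases before the start. CCAAT, a common promoter box, was present in 33.8% of the 32851 upstream windows of the same length in the table. None of the 3 windows held any other motif searched, which says only that these letters are not in these bases. For comparison, GGAAGT was found in 19.7% of all windows, GAGGAAGT in 2.44%, AGAGGAAGT in 0.798%, TTGCNNAA in 9.56%, TTGCGCAA in 0.164% and TGATGNAA in 3.45%. The windows were rich in G and C, with 66.4% for Cebpa, 81.6% for Cebpb and 70.8% for Cebpg against a median of 52.4%.

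Library totals ran from 7408118 to 9803258 counts. Untreated clone 1 had 22% of its counts on 1 entry without a symbol, against 0.153% to 1.64% in the others, and a TMM scaling factor of 0.736 against 0.916 to 1.18. Spi1, the target of the hairpin, was at 23.7 to 48.1 CPM (read counts scaled by TMM to a common library size) in untreated, 156 to 197 CPM in doxycycline and 23.9 to 52.0 CPM in washed libraries. Washed clone 1 stood apart from the other washed libraries, with the myeloperoxidase gene Mpo at 1720 CPM against 65.1 and 50.04 CPM. Of the 9 markers set for a myeloid blast, all 9 were tested, 5 were higher in doxycycline and 0 lower (6.57% and 4.35% of all tested genes). Spi1, the target of the hairpin, is among the 9 and among the 5, so its rise was set by the design. With each clone compared with itself (clone as a block) 5 were higher and 1 lower, against 1566 and 1410 of all 12004 genes. Ptprc, the pan-leukocyte antigen CD45, averaged 1.55 CPM in untreated and 38.4 CPM in doxycycline cells, and Cd33 0.227 and 6.57 CPM. These 2 were close to 0 while the hairpin was on, but the list summed to 1769 to 2474 CPM untreated. Csf2rb averaged 1452 CPM and Cd34 19.9 CPM untreated, and 1908 and 182 CPM in doxycycline. Mpo went the other way, from 71.1 to 9.88 CPM (edgeR adjusted p = 0.273, blocked 0.0125). Results that rest on clone 1 are given with and without it.

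Cebpe was the most abundant member in each library and the one that passed a test between conditions in both directions, once each clone was compared with itself. It lies on chromosome 14 (54710363 to 54712174 on GRCm38, Entrez gene 110794, minus strand). Untreated, clones 1, 2 and 4 had 327, 221 and 222 CPM. With doxycycline the same clones had 544, 399 and 422 CPM. After washout they had 421, 219 and 195 CPM. The 3 doxycycline libraries lay above the 3 untreated ones without overlap, and they overlapped the washed ones through clone 1 alone, whose washed level was above that of doxycycline clone 2. Of all tested genes, 20.4% likewise had each doxycycline library above each untreated one.

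Within clones the ratio of doxycycline to untreated for Cebpe was 1.66, 1.81 and 1.90, and the ratio of washed to doxycycline was 0.774, 0.548 and 0.462. The group means were 257 ± 61.1 CPM untreated, 455 ± 78.1 CPM in doxycycline and 278 ± 124 CPM washed (SD, n = 3 per group). In edgeR's quasi-likelihood test with a mean for each group, Cebpe missed the threshold of 0.05 for doxycycline against untreated (log2 fold change 0.83 ± 0.32 SE, 95% interval 0.12 to 1.54, adjusted p = 0.127). It also missed it for washed against doxycycline (-0.71 ± 0.31 SE, -1.42 to -0.00, adjusted p = 0.191). With the clone as a block, which compares each clone with itself, Cebpe rose in doxycycline by 0.84 ± 0.17 SE on the log2 scale (edgeR adjusted p = 0.0113). By the same fit it fell from doxycycline to washed cells (-0.78 ± 0.17 SE, adjusted p = 0.0158). Without clone 1 the unblocked test was passed both ways (0.89, adjusted p = 0.0305, and -0.99, adjusted p = 0.0212). The blocked calls were lost without clone 2 (adjusted p = 0.103 for the rise and 0.155 for the fall) and without clone 4 (0.152 and 0.253). Washed and untreated cells differed by 0.12 on the log2 scale, with an interval of -0.59 to 0.82.

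Cebpb, on chromosome 2 (167688915 to 167690432, Entrez gene 12608, plus strand), was likewise highest in doxycycline in each clone, at a lower level. Clones 1, 2 and 4 had 29.0, 44.6 and 29.6 CPM when untreated. They stood at 46.8, 66.5 and 37.9 CPM with doxycycline and 17.2, 51.1 and 30.8 CPM after washout. Each clone was highest in doxycycline, by 1.62, 1.49 and 1.28 times the untreated level, but the groups overlapped because clone 2 was highest in each condition. Cebpb and Cebpe were thus 2 of 5 members higher in doxycycline than in both other conditions in each clone, against 22.9% of all tested genes.

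The change in Cebpb did not pass the test for doxycycline against untreated (log2 fold change 0.55 ± 0.38 SE, interval -0.31 to 1.41, adjusted p = 0.396, 0.110 with the clone as a block). Nor did it for washed against doxycycline (-0.61 ± 0.38 SE, adjusted p = 0.355, 0.0642 with the block). With the block and without washed clone 1 it passed for doxycycline against untreated (0.54, adjusted p = 0.00948), and likewise without clone 1 (0.47, adjusted p = 0.0343). These were the 2 of 19 alternatives it passed: with the block it did not pass without clone 2 (adjusted p = 0.305), clone 4 (0.272) or untreated clone 1 (0.127). In the GENCODE vM21 annotation, 312 exonic bases of Cebpb overlap Tmem189, which lies on the opposite strand. The RefSeq positions instead put Tmem189 27371 bases from Cebpb. Tmem189 was at 42.6 CPM untreated and 58.0 CPM in doxycycline. The strand setting of the counting is not given in the sources used here, so reads from that stretch could come from either gene.

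**Figure D1:**
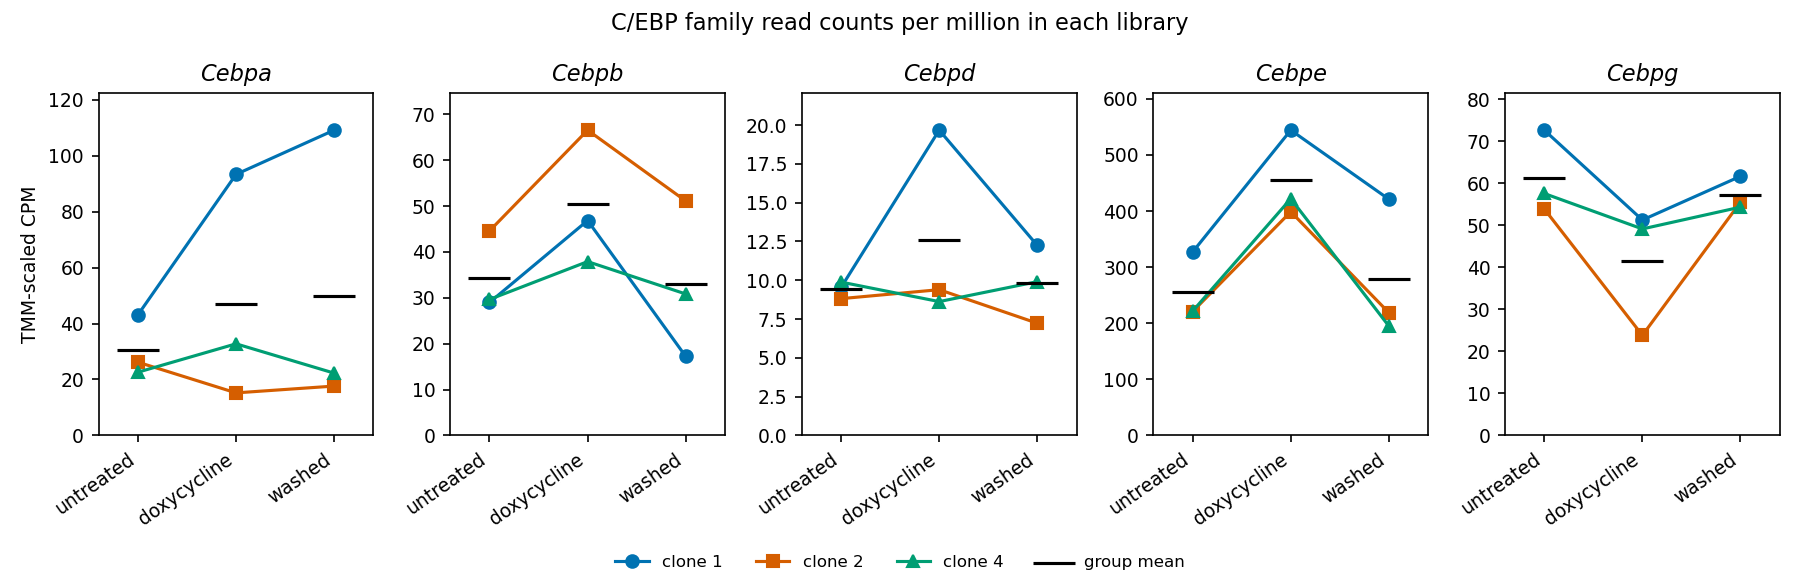
TMM-scaled CPM (vertical axes, each starting at 0) of the 5 C/EBP genes in untreated, doxycycline and washed libraries, with a line for each clone and a black bar for the group mean (n = 3). Cebpe peaks in doxycycline in each clone, at 399 to 544 CPM, while Cebpa is high in clone 1 alone and does not come back down there after washout.

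Cebpa, the member needed at the progenitor step, was set apart by its level in clone 1. The gene is on chromosome 7 (35119293 to 35121928, Entrez gene 12606, plus strand). Clone 1 had 43.1 CPM untreated, 93.3 CPM in doxycycline and 109 CPM after washout. Clone 2 had 26.2, 15.2 and 17.7 CPM in the same order, and clone 4 had 22.6, 32.8 and 22.3 CPM. Thus the doxycycline to untreated ratio was 2.17 in clone 1, 0.581 in clone 2 and 1.45 in clone 4, and the washed to untreated ratio was 2.53, 0.674 and 0.985. All 3 libraries of clone 1 lay above all 6 of the other clones, a pattern that 3.78% of tested genes had.

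None of the 3 comparisons passed for Cebpa, and the intervals were wide. For doxycycline against untreated the log2 fold change was 0.63 ± 0.78 SE (interval -1.13 to 2.39, adjusted p = 0.652). Without clone 1 that value was -0.02. For washed against doxycycline it was 0.08 ± 0.77 SE (adjusted p = 0.965), and -0.27 without clone 1. Without washed clone 1 alone, a fit that keeps the high doxycycline clone 1, it was -1.25 (adjusted p = 0.233). With the clone as a block that value was -0.45. For washed against untreated the log2 fold change was 0.71 ± 0.78 SE (interval -1.06 to 2.47), and -0.29 without clone 1. In a model with group and clone, Cebpa was lower in clone 2 than in clone 1 by a log2 difference of -2.00 and in clone 4 by -1.64, and edgeR's test of both clone terms just missed the threshold (adjusted p = 0.0533). In that test 0 of 12004 genes passed, although 4501 (37.5%) had an unadjusted p under 0.05. With scaling by library size alone or without the low-count filter Cebpa passed (adjusted p = 0.00804 and 0.0163).

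Some other myeloid progenitor genes, but not all, were also high in washed clone 1, the library with the highest Cebpa. Besides Mpo, the neutrophil elastase gene Elane was at 203 CPM there against 19.6 and 38.4 CPM in the other washed clones, Prtn3, proteinase 3, at 300 CPM against 77.6 and 70.2 CPM, and Gfi1, a transcriptional repressor that neutrophil development needs, at 193 CPM against 100.4 and 115 CPM. In the same library Csf1r, the macrophage growth factor receptor, was at 0.552 CPM against 62.0 and 13.8 CPM, and Cd3g, a chain of the T cell receptor complex, at 8.38 CPM against 211 and 141 CPM. The whole primary granule list, to which Mpo, Elane and Prtn3 belong, varied less, with sums of 2447 to 4321 CPM over the washed libraries. Csf2rb was lower in washed clone 1, at 485 CPM against 1432 and 1783 CPM in the other washed clones. Doxycycline clone 1, with nearly as much Cebpa, had Mpo at 27.7 CPM and Elane at 18.97 CPM, below the washed library but above doxycycline clones 2 and 4 (Mpo at 1.06 and 0.872 CPM, Elane at 4.50 and 6.40 CPM). What part these differences between clones have in the Cebpa values was not tested. In bulk RNA, fewer cells of a type and less RNA per cell cannot be told apart.

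Cebpg is the neighbour of Cebpa on chromosome 7 (35046422 to 35056566, Entrez gene 12611, minus strand), 62727 bases away, and was the member with the opposite direction. Clones 1, 2 and 4 had 72.6, 53.9 and 57.6 CPM when untreated. Their levels were 51.3, 23.8 and 49.1 CPM with doxycycline and 61.7, 55.5 and 54.3 CPM after washout. The doxycycline libraries lay below both other groups without overlap, a pattern that held for 18.5% of tested genes against untreated and for 11.8% against washed libraries. Of all genes 21.9% were, like Cebpg, lowest in doxycycline in each clone, and no member had each doxycycline library above each washed one (14.5% of all genes). The size of the difference varied: doxycycline was 0.706 of untreated in clone 1, 0.442 in clone 2 and 0.854 in clone 4. Cebpg did not pass for doxycycline against untreated (log2 fold change -0.56 ± 0.27 SE, interval -1.18 to 0.05, adjusted p = 0.222, 0.0731 with the block) or for washed against doxycycline (0.46 ± 0.27 SE, adjusted p = 0.326, 0.117 with the block). With the block and without washed clone 1 it passed for doxycycline against untreated (-0.60, adjusted p = 0.0441), the 1 of 19 alternatives it passed. With the block it did not pass without clone 1 (adjusted p = 0.0634), clone 2 (0.255), clone 4 (0.151) or untreated clone 1 (0.138).

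Of the other genes within 200000 bases of this pair, Pepd and Gpatch1 were tested, while Slc7a10, Lrp3 and Wdr88 were at or near 0. Pepd, a dipeptidase gene 1714 bases from Cebpg, was like Cebpg lowest in doxycycline in each clone, at 33.8 CPM untreated, 23.5 CPM in doxycycline and 50.4 CPM washed on average, with 82.0 CPM in washed clone 1. Gpatch1, a G-patch protein gene 116984 bases from Cebpa on its other side, ranged from 21.4 to 32.9 CPM over all libraries. Neither passed for doxycycline against untreated (adjusted p = 0.350 and 0.971). Near Cebpe, the amino acid transporter gene Slc7a8, 10041 bases away, was at 79.8 ± 19.8 CPM untreated and 160 ± 42.9 CPM with doxycycline (SD, n = 3, edgeR adjusted p = 0.0605, blocked 0.0103). No other tested gene within 200000 bases of Cebpe passed with the block. The next nearest, 1700123O20Rik and Acin1, had log2 fold changes of -0.37 and -0.15. Near Cebpd, Mzt2, 23917 bases away, was lower in doxycycline (log2 fold change -1.02, edgeR adjusted p = 0.0222, blocked 0.00623).

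Cebpd was the least abundant member. It lies on chromosome 16 (15887286 to 15889545, Entrez gene 12609, plus strand) and had between 52 and 223 counts in a library. Clones 1, 2 and 4 had 9.54, 8.82 and 9.88 CPM when untreated. With doxycycline they had 19.7, 9.39 and 8.62 CPM, and 12.2, 7.23 and 9.91 CPM after washout. Clone 1 in doxycycline was the high library, at 2.06 times its untreated level, while clones 2 and 4 had ratios of 1.07 and 0.873. The log2 fold change for doxycycline against untreated was 0.42 ± 0.36 SE (interval -0.39 to 1.23, adjusted p = 0.493) and turned to -0.06 without clone 1. For washed against doxycycline it was -0.36 (adjusted p = 0.575). In GENCODE vM21, 562 exonic bases of Cebpd overlap Spidr, a DNA repair gene on the opposite strand. Spidr was at 38.4 CPM untreated and 26.5 CPM in doxycycline, and some of the few Cebpd reads may belong to it.

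Across the family, then, 0 of 5 members passed the unblocked test in any of the 3 comparisons, where 10.9% of all tested genes passed for doxycycline against untreated, 9.66% for washed against doxycycline and 0% for washed against untreated. Those shares move with single libraries and clones: the 1311 genes called in the first comparison became 347 without untreated clone 1, 2258 without washed clone 1, 159 without clone 2 and 0 without clone 4. The 1160 called in the second became 717, 1814, 70 and 4. With the clone as a block 1 of 5 passed in each of the first 2 comparisons, Cebpe each time, against 24.8% and 22.9% of all genes (1566 rose and 1410 fell in the first, 1252 rose and 1492 fell in the second). Without the block 3.64% rose and 6.02% fell after washout. The median log2 fold change of the 5 members was 0.55 for doxycycline against untreated, beside 0.00 for all tested genes, -0.36 against 0.04 for washed against doxycycline, and 0.06 against 0.02 for washed against untreated. The first and the last of these medians rest on clone 1. Without that clone the first was -0.020 and the last -0.099, and with the block as well they were -0.056 and -0.0997. With the block and all clones kept they were 0.32 and 0.0075. These comparisons share libraries: the doxycycline libraries serve in the first 2. For washed against untreated, 38 of 12004 genes had an unadjusted p under 0.05 by edgeR and 0 passed adjustment, as with DESeq2 (41 unadjusted) and voom (25 unadjusted). Scaling by library size alone shifted the median of all genes to 0.23 for doxycycline against untreated and the family's median to 0.72. The response to doxycycline did not differ detectably between clones for any member (adjusted p = 1 for each), and for Cebpg the unadjusted p was 0.0190 (407 genes, 3.39%, had one under 0.05 and 0 passed adjustment).

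**Figure D2:**
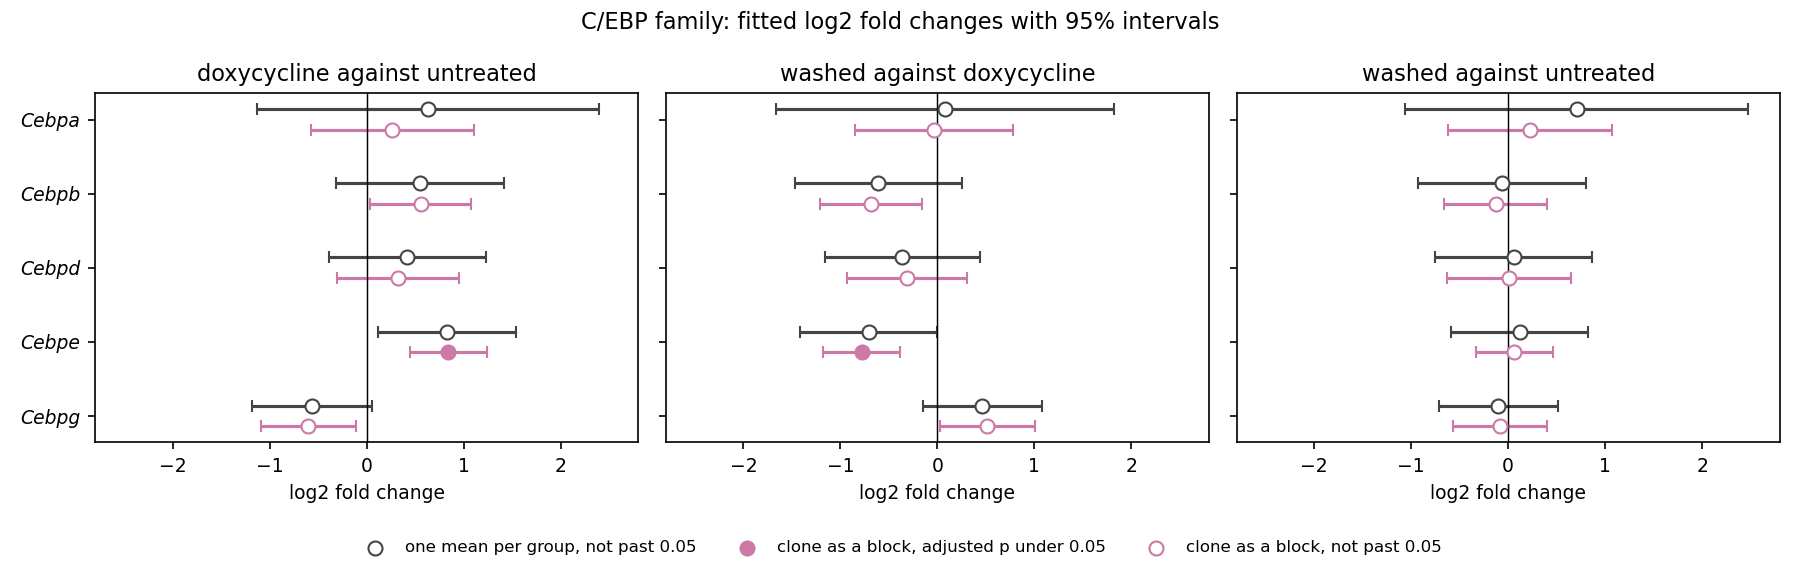
Fitted log2 fold changes (horizontal axes) with 95% intervals for the 5 C/EBP genes in the 3 comparisons, from the fit with a mean for each group (grey) and with the clone as a block (pink), filled where the adjusted p is under 0.05. The filled points are Cebpe with the block, at 0.84 in doxycycline against untreated and -0.78 in washed against doxycycline, and the intervals of Cebpa are the widest.

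Levels of different genes can be compared per length, here as CPM per kilobase of the gene length in the files. On that scale Cebpe was first in 9 of 9 libraries, at 157 to 440 CPM per kilobase, and Cebpd last in 9 of 9, at 3.20 to 8.71. Cebpb was second in 7 libraries, at 11.4 to 44.2 over all libraries, and in doxycycline clone 1 and washed clone 1 Cebpa took that place, at 35.4 and 41.4. Cebpa ran from 5.77 to 41.4 and Cebpg from 5.06 to 15.4. In untreated cells these neighbours in the order overlapped, Cebpa at 8.58 to 16.4 and Cebpg at 11.5 to 15.4 CPM per kilobase. Of the summed level of the family, Cebpe made up 76.0% to 86.8%. Doxycycline clones 2 and 4 had 84.5% and 86.8% Cebpe against 76.5% and 79.9% untreated, and clone 1 had 83.6% against 82.7%.

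**Figure D3:**
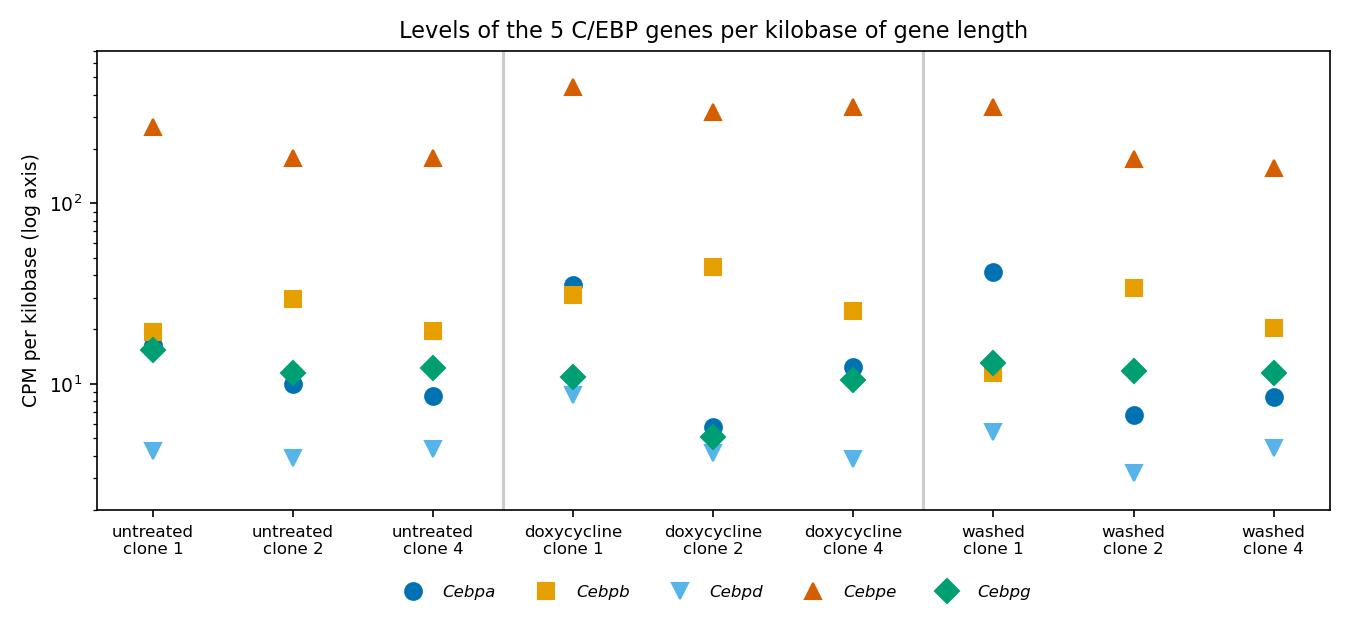
CPM per kilobase of gene length (vertical log axis) of the 5 C/EBP genes in each of the 9 libraries (horizontal axis). Cebpe is the highest point in each library, at 157 to 440, and Cebpd the lowest, while Cebpa ranges from 5.77 to 41.4, with its 2 highest values in doxycycline and washed clone 1.

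No stretch of 50 bases was shared between transcripts of the 5 members in the GENCODE vM21 set, and Cebpe shared none with any other gene. Of the distinct 50-base stretches of Cebpb, 18.1% were shared with Tmem189, and of those of Cebpd 13.7% with Spidr, counting both strands. For Cebpa the share was 0.114% and for Cebpg 0.428%.

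The genes whose pattern over the 9 libraries was most like that of Cebpe were Gpx1, a glutathione peroxidase (r = 0.983), Fbxw11, a ubiquitin ligase subunit (r = 0.982), and Mki67, the proliferation antigen Ki-67 (r = 0.982). Likeness is Pearson's r of log2 CPM over 9 libraries among 9094 named genes whose log2 CPM averaged 3 or more, given as a description, since the libraries share 3 clones. Gpx1 went from 274 ± 59.9 to 649 ± 187 CPM and Mki67 from 338 ± 64.7 to 603 ± 117 CPM (SD, n = 3 per group). Both were picked for likeness to Cebpe over these same libraries. Their rise in doxycycline thus follows from that choice and is no separate evidence. For Cebpa, picked after its clone pattern was seen, the most alike were Rpe, an enzyme of the pentose phosphate pathway (r = 0.992), Pxylp1 (r = 0.986) and Ddost, a subunit of the oligosaccharide transferase (r = 0.983). Pxylp1, a xylose phosphatase, was at 120, 223 and 241 CPM in untreated, doxycycline and washed clone 1 and at 55.6 to 84.7 CPM in the other clones.

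Of the basic leucine zipper relatives and partners, 14 of 17 were tested, 1 rose and 1 fell in doxycycline (6.57% of all genes rose and 4.35% fell), with a list median of -0.13 (0.00 when scaled by library size alone). Atf3, a stress-induced factor, rose from 1.79 ± 1.42 to 17.1 ± 8.16 CPM (adjusted p = 0.0252). Atf5, a relative of ATF4, fell from 54.3 ± 10.9 to 19.4 ± 3.02 CPM (adjusted p = 0.0064). Ddit3, which encodes CHOP, a partner that blocks C/EBP binding, was at 70.2 ± 15.8 untreated and 25.5 ± 6.59 CPM with doxycycline (adjusted p = 0.0952, blocked 0.0326), each mean here being given with its SD over 3 clones. Atf4 was at 295 and 220 CPM (adjusted p = 0.127).

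The wider ATF4 list, in which C/EBP gamma and C/EBP beta have their known partner, had 2 higher and 4 lower of 20 tested (6.57% and 4.35% of all genes), with a median of -1.01. With the block 2 were higher and 11 lower, where 1566 and 1410 of all 12004 genes were. Those lower without the block were Atf5, the pseudokinase Trib3, the alanine transaminase Gpt2, from 50.8 to 8.88 CPM, and Eif4ebp1, a repressor of translation, from 80.8 to 39.5 CPM. The cystine transporter Slc7a11 rose with Atf3, from 6.92 to 43.1 CPM. Cebpg, which also was lower in doxycycline in each clone, is not in that list.

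Among regulators of C/EBP genes and proteins, 15 of 16 were tested, 2 rose and 1 fell (6.57% and 4.35% of all genes), with a median of 0.06. Stat3, which acts on C/EBP genes downstream of G-CSF and IL6 receptors, rose from 98.2 ± 7.67 to 229 ± 12.4 CPM (adjusted p = 0.00198). Gsk3b, a kinase of C/EBP proteins, rose from 66.9 to 104 CPM (adjusted p = 0.0336), and Trib3 fell from 41.9 to 6.72 CPM (adjusted p = 0.0375). Trib1, the pseudokinase that with COP1 marks C/EBP alpha for breakdown, was at 68.5 ± 27.0 and 175 ± 73.2 CPM (adjusted p = 0.0736, blocked 0.00332), higher in doxycycline in each clone. Cop1 was at 17.7 and 18.5 CPM (adjusted p = 0.856), and Trib2 had 0 counts in all 9 libraries.

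Among other lineage factors, 14 of 16 were tested and 1 rose, Spi1 itself, a share near the 6.57% of all genes, with a median of -0.10 (0.12 by library size). Gfi1 was at 123 ± 21.5 untreated against 114 ± 42.2 CPM with doxycycline (adjusted p = 0.866), and Gfi1b, its erythroid and megakaryocytic relative, at 12.8 and 17.5 CPM (adjusted p = 0.675).

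Later neutrophil granules are known to need C/EBP epsilon. Of the secondary granule and late neutrophil list, 15 of 19 were tested. In doxycycline 11 rose and 0 fell (6.57% and 4.35% of all genes), with a median of 3.17. After washout 10 fell (6.02% of all genes). This list had been described in these data before, so its direction is no independent evidence. Lcn2, the granule protein lipocalin 2, averaged 4.97 CPM untreated and 172 CPM in doxycycline, and Padi4, a histone-modifying enzyme, 78.0 and 245 CPM. Not all members passed. Ltf, lactoferrin, was highest in doxycycline in each clone, at 4.33 ± 2.93 untreated and 10.4 ± 1.64 CPM with doxycycline (adjusted p = 0.347). Camp, cathelicidin, was at 5.88 ± 5.04 and 6.25 ± 4.90 CPM (SD, n = 3 per group, adjusted p = 0.940). Chil3, a chitinase-like protein of neutrophil precursors, was lower in doxycycline with the block (adjusted p = 0.0498).

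The eosinophil list, whose cells also need C/EBP epsilon, split: 3 of 8 tested rose, 1 fell (6.57% and 4.35% of all genes), and the median was -0.13 (0.12 by library size). Siglecf and Alox15 were among those that rose, to 27.5 and 584 CPM. Epx, eosinophil peroxidase, fell from 8743 ± 1892 to 3443 ± 1167 CPM (adjusted p = 0.0388; no gene of the list was called lower when scaled by library size alone), while Prg2, the major basic protein, was at 1297 ± 417 and 450 ± 327 CPM (SD, n = 3 per group, adjusted p = 0.257). The summed level of the list was 8410 to 12478 CPM in untreated, 3959 to 5115 CPM in doxycycline and 8371 to 10959 CPM in washed libraries, and its part in the Cebpe values was not tested.

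The primary granule list, with many known C/EBP alpha targets, had 0 of 8 passing without the block and 1 higher and 3 lower with it, at a median of -0.67. With the block 24.8% of all genes were called, 1566 higher and 1410 lower of 12004. Mpo was at 82.7, 50.5 and 80.0 CPM in clones 1, 2 and 4 when untreated, and doxycycline cells had 27.7, 1.06 and 0.872 CPM (adjusted p = 0.273 by edgeR, blocked 0.0125). Elane averaged 41.8 CPM untreated and 9.95 CPM with doxycycline (adjusted p = 0.168, blocked 0.00516).

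Of the receptors with C/EBP or PU.1 sites, 9 of 11 were tested and 3 rose (6.57% of all genes), with a median of 0.40. Csf3r, the G-CSF receptor and a C/EBP alpha target, rose from 16.1 ± 1.81 to 62.1 ± 33.2 CPM (adjusted p = 0.0283), Csf2ra, the GM-CSF receptor alpha chain, from 17.3 to 43.1 CPM and Itgam from 59.6 to 745 CPM. Csf2rb, the shared beta chain, was at 1452 ± 360 and 1908 ± 947 CPM (SD, n = 3 per group, adjusted p = 0.667). Of the inflammatory genes tied to C/EBP beta and delta, 9 of 18 passed the low-count filter and 0 of these passed the test, 3 being higher with the block (1566 of all 12004 genes were). Of those 3, Il1rn, the IL1 receptor antagonist, was at 9.08 ± 4.44 and 39.8 ± 25.3 CPM (adjusted p = 0.0896, blocked 0.0447). Tnf, at 3.78 and 7.99 CPM, did not pass with the block (edgeR adjusted p = 0.0618). Il6 went the other way, at 6.39 and 2.71 CPM, and did not pass either (blocked edgeR adjusted p = 0.109).

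**Figure D4:**
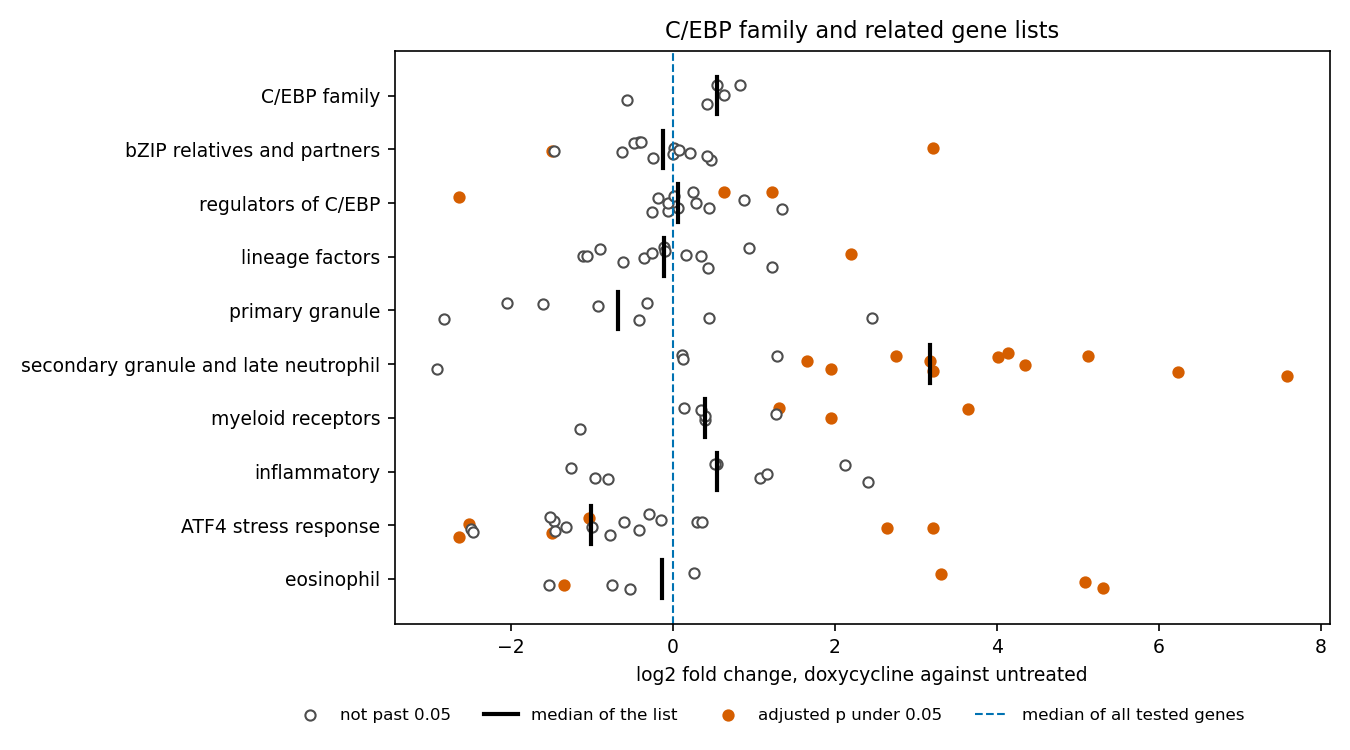
Log2 fold change of doxycycline against untreated (horizontal axis) for each tested gene of the C/EBP family and 9 related lists (rows), filled where the adjusted p is under 0.05, with the list median (black bar) and the median of all tested genes (dashed line, 0.00). The family lies between -0.56 and 0.83, while the secondary granule list reaches a median of 3.17.

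Markers of other cells were read beside these values, where 6.57% of all genes rose and 4.35% fell. Of 10 mast cell and basophil markers 7 were tested and 1 fell, and their summed level was 2675 to 3481 CPM untreated and 445 to 2606 CPM in doxycycline. Of 10 monocyte markers 6 were tested and 1 fell, Cx3cr1, with a summed level of 99.9 to 120 CPM untreated and 51.0 to 253 CPM in doxycycline. Of 5 megakaryocyte markers 4 were tested and 1 rose, with sums of 90.1 to 247 and 466 to 675 CPM. Erythroid markers summed to 15.4 to 22.5 CPM untreated and 1.5 to 8.07 CPM in doxycycline (1 of 3 tested fell), and of the 8 lymphoid markers 1 was tested, Cd3g, at 125 CPM untreated and 22.3 CPM with doxycycline (adjusted p = 0.122, blocked 0.0158). With the clone as a block, 3 mast cell and basophil markers were lower, and 1 monocyte marker was higher and 2 lower. By that fit 2 megakaryocyte markers were higher and 1 erythroid marker lower, where 1566 and 1410 of all 12004 genes were. Fcer1a, Pf4, Cd4, Ncr1 and Ebf1 had 0 counts in all 9 libraries. The part of these differences in the C/EBP values was not tested.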

How the data were processed

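RNA was sequenced from 3 clones of the AML246 line in 3 conditions, 9 libraries in all. The submitters' processing notes name the mm10 build, limma 3.22.0 and edgeR 3.8.2, besides featureCounts and CASAVA 1.8.2. Aligner, annotation version and strand setting: not given in the sources used here. Each library has 1 deposited file, which holds raw counts and gene lengths by Entrez identifier per the file headers. Symbols came from the RefSeq table of GRCm38, the same build, which matched 25275 of 27179 entries.

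edgeR 4.0.16 in R 4.3.3 was used with filterByExpr (12004 genes kept), TMM scaling and a quasi-likelihood fit of 1 mean per group to all 9 libraries, with Benjamini-Hochberg adjustment over all genes and a threshold of 0.05. The SE was taken as the fold change (log2) over the root of F, and intervals are 95% from the t distribution of the fit. Clones were tested with group and clone terms, and their response with clone, hairpin state and interaction terms, untreated and washed both counting as hairpin on. The spread in that response test is thus the difference between untreated and washed libraries within clones. Log2 CPM used a prior count of 2. The clone numbers pair the libraries since a number names 1 clonal line across the conditions: deviations from group means correlated at 0.29 to 0.68 in the 9 same-clone pairs and at -0.69 to 0.32 in the other 18. The test with a mean for each group and the clone and response tests were checked on simulated counts. For the test between conditions these counts held no differences between clones. The fit with the clone as a block was not checked in this way. Alternatives were RLE factors, library size alone, no filter, at least 5 CPM in 3 libraries, DESeq2 1.42.0, limma 3.58.1 voom, the 2 groups alone, the clone block, and leaving out clones, single libraries of clone 1 or the largest entry.

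Named genes were the members, Spi1, and for each list the first 3 tested genes in the written order and up to 3 called genes of smallest p, beside a few chosen after their values were seen: the neighbours and overlapping genes, Slc7a11, Eif4ebp1, Chil3, Cd33, the genes alike to Cebpa and those at 0. The members and lists were chosen with earlier results of these data known. No protein sequences were used here, and 1 marker gene is not reported here.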

Additional observations from a re-analysis of the deposited data

How the results depend on the processing

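Of 335 results of the 5 members under the alternatives, 282 kept their direction and side of the threshold, 19 passed it where the reported fit did not, and 34 turned direction, of which 21 were in washed against untreated and 0 had an adjusted p under 0.05. Leaving out washed clone 1, and leaving out a clone or washed clone 1 with the replicate block, were chosen after seeing the data. The cause of each change was not tested.

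For doxycycline against untreated, Cebpe passed in 2 groups alone (0.82), with the replicate block (0.84), without clone 1 (0.89, within 0.77 to 1.04 over the clones or untreated clone 1 left out), without washed clone 1 (0.83), and with the block and without untreated clone 1 (0.79), washed clone 1 (0.84) or clone 1 (0.89; 0.78 to 0.89 over the clones). With the block, Cebpb passed without washed clone 1 (0.54) or clone 1 (0.47; 0.47 to 0.63), and Cebpg without washed clone 1 (-0.60). Members called were then 1, but 3 with the block and without washed clone 1, and 2 with the block and without clone 1 (0 to 1 over the clones left out without it, 0 to 2 with it). Cebpa turned to -0.020 without clone 1 (up to 0.95 over the libraries left out), and with the block to -0.082 without clone 1 and -0.18 without untreated clone 1. Cebpd turned to -0.056 without clone 1, with and without the block (up to 0.65 over the clones). Genes called, 1311 as reported, were 2138 with DESeq2, 2026 in 2 groups alone, 2976 with the block, 347 without untreated clone 1, 2258 without washed clone 1 and 0 to 967 over the clones left out (159 without clone 2 and 0 without clone 4). With the block they were 2414 without untreated clone 1, 4732 without washed clone 1 and 4117, 623 and 360 without clones 1, 2 and 4.

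For washed against doxycycline, Cebpe passed with the replicate block (-0.78), without clone 1 (-0.99, within -0.99 to -0.54), without washed clone 1 (-1.14), and with the block and without untreated clone 1 (-0.78), washed clone 1 (-0.96) or clone 1 (-0.99, within -0.99 to -0.60), with 1 member called each time. Cebpa turned to -0.042 with voom and -0.037 with the block, -0.27 without clone 1 (up to 0.25 over the clones), -1.25 without washed clone 1, and with the block to -0.058 without untreated clone 1, -0.45 without washed clone 1, -0.24 without clone 1 and -0.11 without clone 2. Genes called, 1160 as reported, were 648 by library size, 1967 with DESeq2, 324 in 2 groups alone, 2744 with the block, 717 without untreated clone 1, 1814 without washed clone 1, 70 without clone 2 and 4 without clone 4. With the block they were 3561 without untreated clone 1, 3820 without washed clone 1 and 4325, 421 and 320 without clones 1, 2 and 4.

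For washed against untreated, Cebpb turned to 0.078 and Cebpg to 0.13 by library size. Without clone 1, Cebpa turned to -0.29, Cebpb to 0.14, Cebpd to -0.13 and Cebpe to -0.10, and with the block to -0.32, 0.13, -0.13 and -0.10. Without washed clone 1 they turned to -0.61, 0.25, -0.14 and -0.31, and with the block Cebpa to -0.12, Cebpb to 0.16, Cebpe to -0.13 and Cebpg to 0.011. Cebpg turned to 0.038 without untreated clone 1 (down to -0.17 over the libraries left out, with Cebpa up to 1.03, Cebpd to 0.19 and Cebpe to 0.33), and with the block Cebpa and Cebpd to -0.24. Between clones, genes called rose from 0 to 74 with RLE, 1140 by library size and 1664 with no filter. There the adjusted p was 0.00804 for Cebpa by library size, and 0.0163 for Cebpa and 0.0423 for Cebpe with no filter. Of 192 counts of related lists, 33 moved. With 52 to 223 counts in a library, Cebpd is the member most limited by depth.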
